A study of Mus musculus with 4 samples.

Results

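The 10 genes described here encode the mouse MHC class I presentation pathway: 5 heavy chains (H2-D1, H2-K1, H2-Q4, H2-Q7 and H2-T23), their light chain B2m, the peptide transporter subunits Tap1 and Tap2, the loading factor Tapbp and the transactivator Nlrc5. They were chosen by symbol from the 32285 genes of the count tables, with no measured value in the rule, and all 10 were detected and tested. Brain cells sorted for CD45 and CD11b were profiled by 3′ droplet sequencing from 2 PRMT1FL mice, which carry floxed Prmt1 and are labelled wild type, and 2 PRMT1Cx3cr1-KO mice, labelled PRMT1-KO, in which a tamoxifen-inducible Cre driven by Cx3cr1 deletes it. Cx3cr1 is active in microglia and in other macrophages, so the deletion is not restricted to microglia. All 4 mice were C57BL/6 animals that received tamoxifen at 5 to 6 wk of age by the study's methods and then cuprizone (CPZ), which chelates copper and strips axons of myelin, at 0.2% of the diet for 5 wk, and each gave 1 library. No mouse without CPZ was analysed here, so the levels below are those of the demyelinated brain.

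Nearly all nucleated cells present peptides of their own cytosolic proteins on class I molecules, which CD8 T cells and natural killer cells read. The proteasome supplies the peptides, the Tap1 and Tap2 heterodimer pumps them into the endoplasmic reticulum, Tapbp (tapasin) holds an empty class I molecule at the transporter, and the heavy chain leaves for the surface only when paired with B2m. Nlrc5 switches on the class I genes as Ciita does the class II genes, and interferons and NF-kB raise class I transcription. Class II molecules, by contrast, show peptides of engulfed material to CD4 T cells and are kept to professional presenting cells, among them activated microglia.

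By GENCODE M21, on mm10, 8 of the 10 genes lie in the MHC on chromosome 17. They are Tapbp (chr17:33915899-33929292), H2-K1 (chr17:33996017-34000347), Tap1 (chr17:34187553-34197225), Tap2 (chr17:34203527-34216321), H2-D1 (chr17:35262730-35267499), H2-Q4 (chr17:35379617-35385290), H2-Q7 (chr17:35439155-35443773) and H2-T23 (chr17:36029773-36032855). B2m (chr2:122147686-122153083) and Nlrc5 (chr8:94434356-94527272) lie elsewhere. RefSeq's table of promoters on GRCm38.p6, the assembly of mm10, held 8 of the 10 genes and not Tap2 or Nlrc5, each as 250 bases before and 50 after the annotated start.

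The 4 heavy chain promoters below and that of B2m are shown because they share the elements through which class I genes are known to be induced. Each line is a window of 120 bases, 5′ to 3′ on the strand of the gene, and capitals mark every match to 4 motifs searched on both strands: an IRF-type element (AANNGAAA), the NF-kB consensus, the CCAAT box (CCAAT, read as ATTGG on the other strand) and the CRE core (TGACG). The windows are H2-K1 at chr17:34000349-34000468 on the minus strand, and on the plus strand H2-D1 at chr17:35262913-35263032, H2-Q4 at chr17:35379433-35379552, H2-Q7 at chr17:35439012-35439131 and B2m at chr2:122147540-122147659. All lie upstream of the start that RefSeq annotates. The GENCODE start of H2-D1 lies further upstream, so its window falls within the GENCODE span given above.
H2-K1: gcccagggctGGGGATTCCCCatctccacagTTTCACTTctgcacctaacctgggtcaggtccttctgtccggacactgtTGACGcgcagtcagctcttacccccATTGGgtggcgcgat
H2-D1: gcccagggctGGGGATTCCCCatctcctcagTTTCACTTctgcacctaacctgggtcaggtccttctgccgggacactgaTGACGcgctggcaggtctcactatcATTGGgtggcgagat
H2-Q4: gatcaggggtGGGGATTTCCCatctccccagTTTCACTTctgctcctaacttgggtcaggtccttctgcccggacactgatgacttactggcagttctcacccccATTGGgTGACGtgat
H2-Q7: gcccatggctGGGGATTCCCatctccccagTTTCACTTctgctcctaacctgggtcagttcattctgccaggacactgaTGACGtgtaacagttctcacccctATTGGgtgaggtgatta
B2m: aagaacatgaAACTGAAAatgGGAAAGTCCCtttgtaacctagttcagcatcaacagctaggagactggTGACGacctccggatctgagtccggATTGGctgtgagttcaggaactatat

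The windows of the 4 heavy chains were at least 82.8% identical to each other and 49.3% to 54.8% identical to that of B2m. In H2-K1, H2-D1 and H2-Q4 the IRF-type match began 21 bases after the NF-kB match, and in H2-Q7 20 bases after it. In B2m the order was the other way round, with the IRF-type match 11 bases before the NF-kB match. The NF-kB and IRF-type matches overlapped in none of the 5 windows. Of all 32851 promoters of this length, 23.9% held the IRF-type letters, 8.46% the NF-kB consensus, 37.4% CCAAT and 20.8% TGACG, while 1.47% held both of the first 2 and 0.11% held all 4. These 5 genes were in that last group, although the motifs were chosen after their sequences had been read. The promoter of H2-T23 held 2 IRF-type matches and no NF-kB match, and those of Tap1 and Tapbp held neither. A match is only a stretch of letters.

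**Figure D1:**
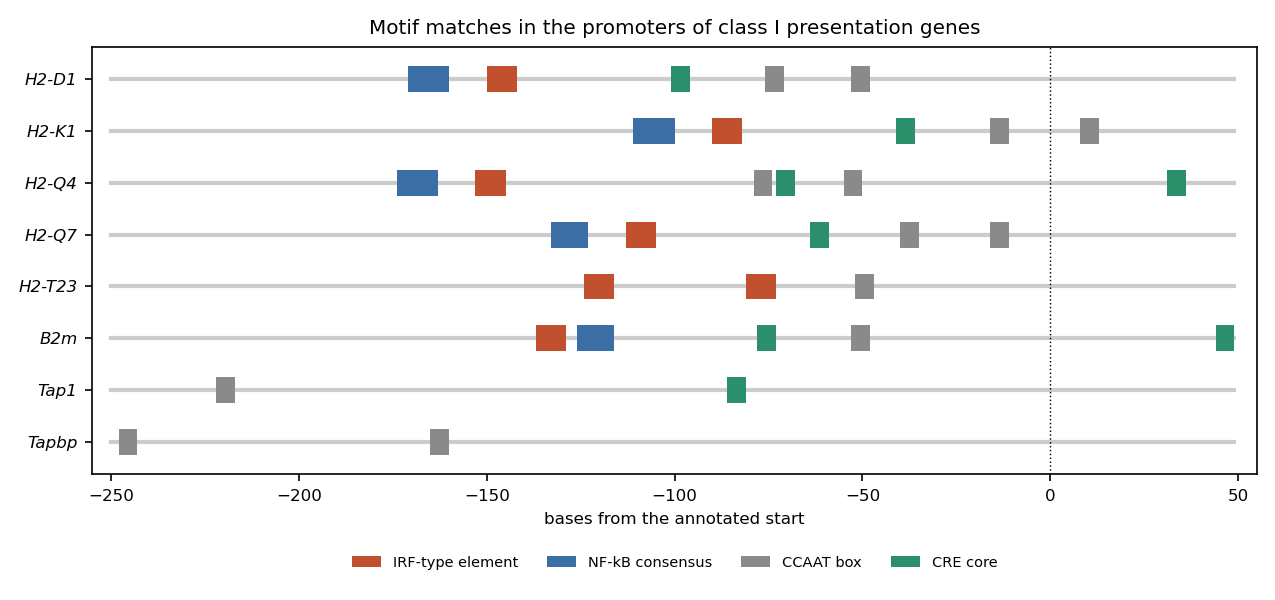
Motif matches (coloured blocks, both strands) along the 300-base promoters (grey lines) of the 8 genes with a RefSeq entry, by distance in bases from the annotated start (dotted line). H2-D1, H2-K1, H2-Q4 and H2-Q7 carry an NF-kB match followed 20 to 21 bases on by an IRF-type match, and B2m carries the pair in the other order.

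The files held 76943248 to 99559644 unique molecular identifiers (UMIs, each counting 1 captured RNA molecule once) per library, and 8170 to 10902 cells per library passed the study's limits on genes and mitochondrial UMIs. Of all 40869 cells, 39507 fell into 8 microglial clusters, and libraries shared 31 to 46 cell barcodes per pair. Among the 8, the cluster led by Ms4a7 and Clec12a came from dividing further the cluster highest in border macrophage markers. At a raised clustering resolution of 0.6 and without that division, 1406 cells led by Mrc1, H2-Eb1, F13a1, Clec12a and Ms4a7 counted as border macrophages. UMIs were summed per library over the microglia and are given as CPM, that is, scaled to equal library sums. Summed markers of microglia were at 9480 to 10749 CPM, whereas those of border macrophages were at 19.2 and 18.8 CPM in PRMT1FL and at 36.0 and 96.5 CPM in PRMT1Cx3cr1-KO replicates 1 and 2. Genes of dividing cells moved the same way, at 114, 113, 158 and 230 CPM. Both sums were thus highest in the replicate in which class I levels were lowest, and their part in the results below was not tested. Without the cluster led by Ms4a7 and Clec12a, to which that replicate gave 433 of 554 cells, the log2 fold changes were -0.59 for H2-D1 and -0.46 for B2m. Dividing cells stayed in that sum, and the border macrophage markers that remained in it were not measured. Erythroid markers summed to 242 and 94.3 CPM in PRMT1FL and to 0.0615 and 0.0217 CPM in PRMT1Cx3cr1-KO, and were highest in a cluster led by haemoglobin genes. Without that cluster H2-D1 was at -0.57 and B2m at -0.45. Prmt1 itself was at 90.9 and 83.9 CPM in PRMT1FL and at 70.2 and 70.7 CPM in PRMT1Cx3cr1-KO, a log2 fold change of -0.39 (SE 0.07, edgeR quasi-likelihood adjusted p = 0.0715). UMIs from the 3′ end do not separate intact from recombined transcripts.

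The light chain and the 2 classical heavy chains were the most abundant members. B2m, which every class I molecule needs, was at 3323 and 3695 CPM in PRMT1FL and at 3022 and 2353 CPM in PRMT1Cx3cr1-KO replicates 1 and 2. H2-D1, a classical heavy chain, was at 1667 and 1763 CPM in PRMT1FL and at 1484 and 917 CPM in PRMT1Cx3cr1-KO. H2-K1, the other classical heavy chain, was at 1046 and 1112 CPM against 975 and 662 CPM. For each of these 3 genes both PRMT1Cx3cr1-KO libraries lay below both PRMT1FL libraries, and replicate 2 lay much further below than replicate 1. Against the PRMT1FL mean, replicate 1 kept 86.1% of B2m, 86.5% of H2-D1 and 90.3% of H2-K1, and replicate 2 kept 67.1%, 53.4% and 61.4%.

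The nonclassical chains were lower in level and less alike. H2-T23, which encodes the Qa-1 molecule that shows signal peptides to natural killer cells, was at 249 and 279 CPM in PRMT1FL and at 252 and 180 CPM in PRMT1Cx3cr1-KO, and the groups overlapped. H2-Q4, a Qa-region chain, was at 67.5 and 68.2 CPM against 73.6 and 40.7 CPM, so that PRMT1Cx3cr1-KO replicate 1 was the highest and replicate 2 the lowest library. H2-Q7, which encodes a Qa-2 chain, was at 51.8 and 58.8 CPM against 46.0 and 15.8 CPM. It was lower in both PRMT1Cx3cr1-KO libraries, and replicate 2 held 28.5% of the PRMT1FL mean, the lowest share of any member. Of the 91-base words in the last 500 bases of the coding transcripts, 12.9% for H2-T23, 9.27% for H2-Q4 and 4.55% for H2-Q7 also occurred in transcripts of other genes, H2-Q5 in the case of H2-Q7. That share was 0.076% for H2-K1 and 0 for the other 6 members, so the levels of the 3 nonclassical chains are the less certain ones.

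Of the transport and loading genes, Tap2 and Tapbp differed less. Tap1 stood at 105% of the PRMT1FL mean in replicate 1 and at 70.9% in replicate 2, near the 67.1% of B2m. Tap1 was at 64.4 and 59.6 CPM in PRMT1FL and at 65.1 and 44.0 CPM in PRMT1Cx3cr1-KO. Tap2 was at 45.0 and 45.9 CPM against 44.2 and 40.2 CPM. Tapbp was at 189.3 and 189.5 CPM against 186 and 157 CPM. In replicate 1 the 3 genes together stood at 99.4% of the PRMT1FL mean and in replicate 2 at 81.3%. Nlrc5 was the scarcest member, at 6.65 and 7.44 CPM in PRMT1FL and at 7.68 and 4.56 CPM in PRMT1Cx3cr1-KO, which rest on 420 to 625 UMIs per library.

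**Figure D2:**
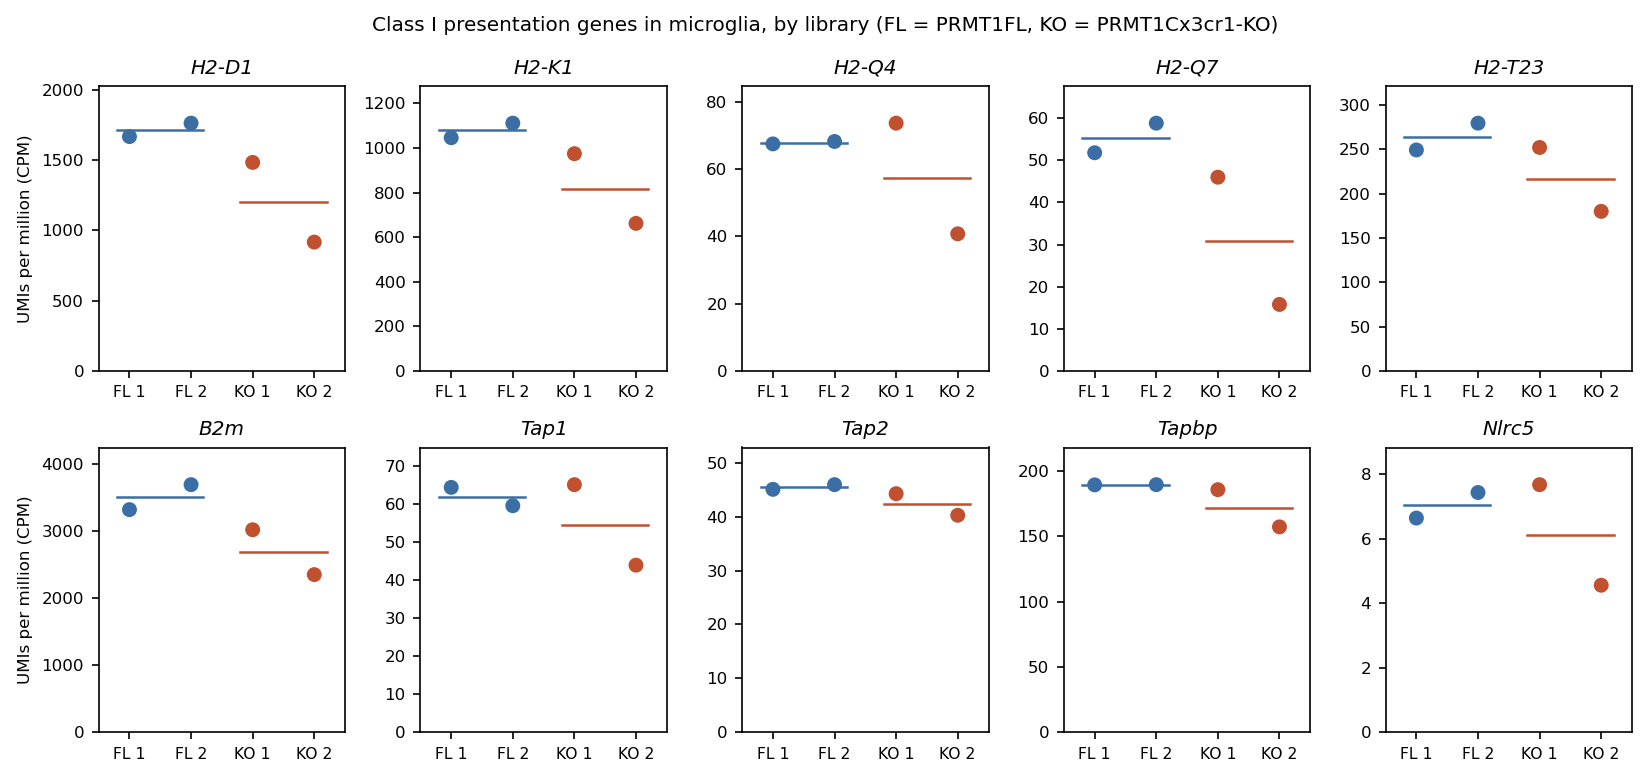
Level of each of the 10 genes in microglia (CPM, axis from 0) in each library, with the group mean as a line (n = 2 mice per genotype). PRMT1Cx3cr1-KO replicate 2 is the lowest library for all 10 genes, and replicate 1 holds 83.2% (H2-Q7) to 109% (Nlrc5) of the PRMT1FL mean. The share of all genes tested for which replicate 2 is the lowest library was not counted.

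In all 4 libraries the members with the highest levels were, in this order, B2m, H2-D1, H2-K1, H2-T23 and Tapbp. The 3′ protocol counts 1 tag per molecule, so these levels are not divided by gene length. In PRMT1FL each step between these 5 genes was larger than the difference between the 2 libraries. H2-Q4 and Tap1 came next, H2-Q4 being above Tap1 in 3 libraries and below it in PRMT1Cx3cr1-KO replicate 2. H2-Q7 and Tap2 followed, with H2-Q7 above Tap2 in PRMT1FL and in replicate 1 and far below it in replicate 2. B2m made up 51.9% and 53.0% of the UMIs of the 6 chains in PRMT1FL, and 51.6% and 56.5% in PRMT1Cx3cr1-KO. H2-Q7 made up 0.809% and 0.843% against 0.786% and 0.379%.

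The 4 library sums were compared between the genotypes, gene by gene, by the quasi-likelihood test of edgeR, in which the mouse is the replicate. At an adjusted p under 0.05 the test called none of the 10 members, while it called 95 of 13829 genes (0.687%), 24 of them lower (0.174%) and 71 higher (0.513%) in PRMT1Cx3cr1-KO. All 10 fitted log2 fold changes were below 0, with a median of -0.34, where 50.9% of all genes tested were below 0 and their median was -0.0037. At an unadjusted p under 0.05, 3 of the 10 were lower, H2-D1, H2-K1 and B2m, where 9.74% of all genes were. For 6 of the 10, both PRMT1Cx3cr1-KO libraries lay below both PRMT1FL libraries, as did 17.3% of all genes. None lay above, as did 38.7% of all genes. These overlaps are in CPM, whereas the fitted fold changes also carry edgeR's TMM scaling of the library sums, so ratios of CPM differ from them. In mean UMIs per cell thinned to 1000 UMIs, H2-D1, H2-K1, B2m and Tap2 stayed lower without overlap. H2-Q7 and Tapbp then overlapped, with Tapbp at 0.188 and 0.181 in PRMT1FL against 0.183 and 0.158 in PRMT1Cx3cr1-KO.

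H2-D1 had a log2 fold change of -0.58 (SE 0.22, edgeR adjusted p = 0.223), H2-K1 of -0.47 (SE 0.19, adjusted p = 0.236) and B2m of -0.46 (SE 0.15, adjusted p = 0.164). DESeq2, run on the same sums, called B2m alone (DESeq2 adjusted p = 0.026), where it called 308 of 13829 genes lower (2.23%). H2-Q7 had the largest difference and the largest error, -0.91 (SE 0.44, edgeR adjusted p = 0.315). H2-T23 was at -0.36 (SE 0.17) and H2-Q4 at -0.31 (SE 0.26). Tap1 was at -0.26 (SE 0.19), Tapbp at -0.22 (SE 0.10), Tap2 at -0.18 (SE 0.08) and Nlrc5 at -0.27 (SE 0.24). None of these differences passed the test against the spread between mice, and an exact permutation test of 2 mice against 2 cannot give a two-sided p below 0.333.

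The 2 PRMT1Cx3cr1-KO libraries differed from each other more than the PRMT1FL libraries did. As a log2 ratio of replicate 2 over replicate 1, with 1 CPM added, H2-Q7 was at -1.49, and 0.043% of the 13829 genes lay below it. H2-Q4 was at -0.84, with 0.376% of genes below it, H2-D1 at -0.69 with 0.658% and Nlrc5 at -0.64 with 0.861%. H2-K1 and Tap1 were both at -0.56, each with 1.19%. Tap2 had the smallest difference, -0.13, with 14.0% of genes below it. Between the PRMT1FL libraries the members differed by 0.18 at most, and the median over all genes was 0.04 between the PRMT1Cx3cr1-KO and -0.0017 between the PRMT1FL libraries. The labels name no batch, so a batch and the mouse cannot be told apart.

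Which PRMT1Cx3cr1-KO mouse was used therefore set the result. Without PRMT1Cx3cr1-KO replicate 1, all 10 members were called lower (9.24% of 14184 genes were), from -1.90 for H2-Q7 (SE 0.09, edgeR adjusted p = 1.47e-08) and -0.997 for H2-D1 (SE 0.09, adjusted p = 5.35e-06) to -0.27 for Tap2 (SE 0.07, adjusted p = 0.0158). Without PRMT1Cx3cr1-KO replicate 2, only H2-Q7 was called lower, at -0.31 (SE 0.08, edgeR adjusted p = 0.0398), where 2.43% of 14113 genes were. H2-D1 and B2m were then at -0.26, and Tap1 (0.022), H2-Q4 (0.070) and Nlrc5 (0.079) lay above 0. In these fits the lone mouse is assumed to vary like the PRMT1FL mice. Fits without either PRMT1FL mouse called very few genes of any kind, so the absence of members among them is not a result about the members.

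**Figure D3:**
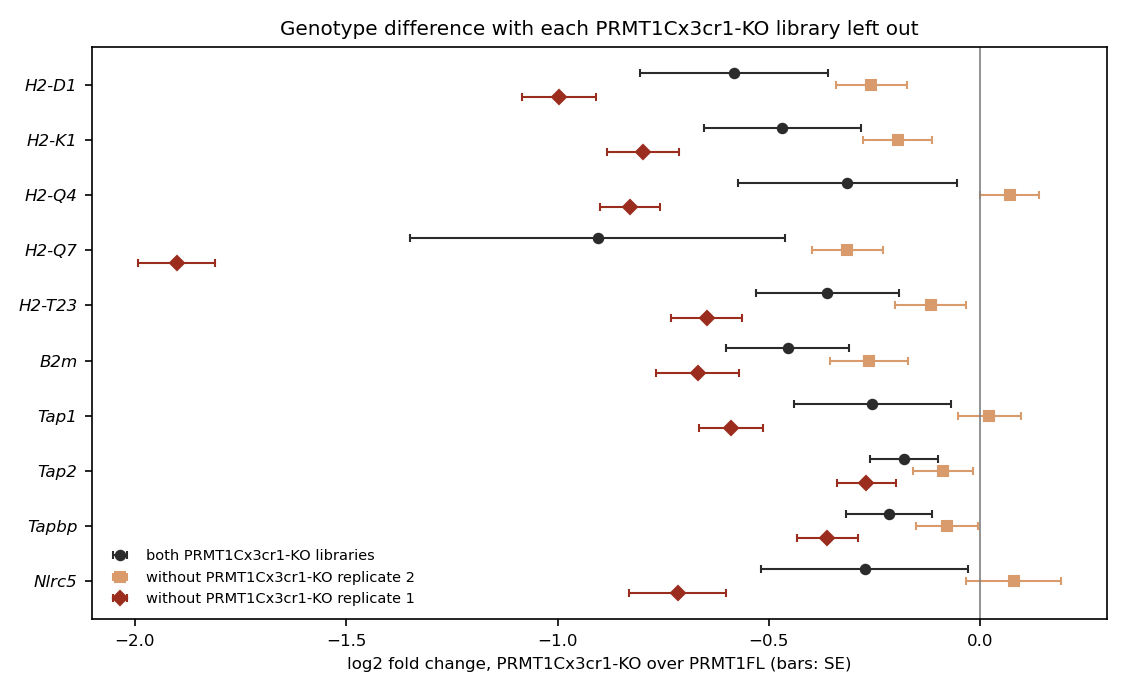
Log2 fold change of PRMT1Cx3cr1-KO over PRMT1FL in microglia with its SE, from edgeR, with both PRMT1Cx3cr1-KO libraries (black), without replicate 2 (light squares) and without replicate 1 (dark diamonds). All 10 genes lie further below 0 without replicate 1, and H2-Q4, Tap1 and Nlrc5 lie just above 0 without replicate 2.

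Class II genes were set beside class I. The invariant chain Cd74 and the class II chains H2-Aa, H2-Ab1 and H2-Eb1 summed to 1039 and 1323 CPM in PRMT1FL and to 398 and 140 CPM in PRMT1Cx3cr1-KO replicates 1 and 2. The 6 class I chains summed to 6405 and 6976 CPM against 5852 and 4169 CPM. Relative to the PRMT1FL mean, replicate 1 kept 87.5% of the class I sum and 33.7% of the class II sum, and replicate 2 kept 62.3% and 11.9%. The class I sum was 6.17 and 5.27 times the class II sum in PRMT1FL and 14.7 and 29.7 times in PRMT1Cx3cr1-KO. The groups did not overlap in this ratio, and the exact permutation p of 2 against 2 cannot pass the threshold. Of the 10 class II genes tested, none was called either, with a median of -1.15. In both PRMT1Cx3cr1-KO libraries 8 of them lay below both PRMT1FL libraries, as did 17.3% of all genes. H2-Aa was at -2.83 (SE 0.56) and Cd74 at -2.26 (SE 0.54). Without PRMT1Cx3cr1-KO replicate 2, the median log2 fold change was -0.84 for the 10 class II genes and -0.10 for the 10 class I members. Without replicate 1 the medians were -1.54 and -0.69. The difference between the 2 groups of genes was not tested.

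**Figure D4:**
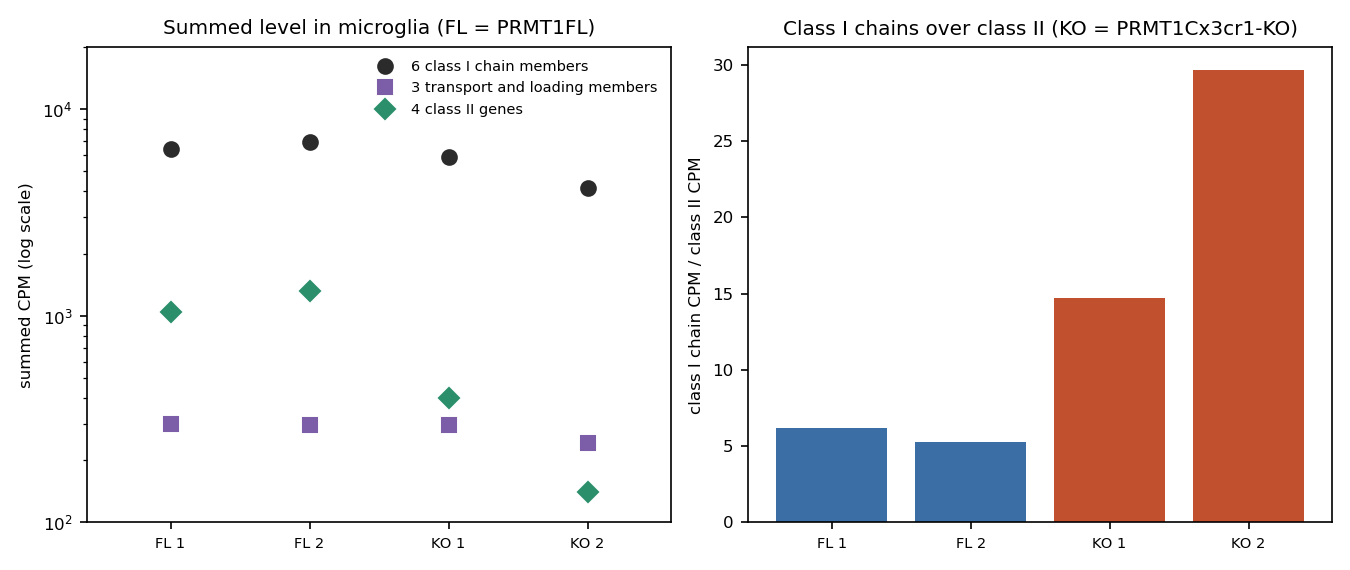
Summed CPM in microglia of the 6 class I chains, the 3 transport and loading genes and the 4 class II genes by library (left, log axis), and the class I sum divided by the class II sum (right, axis from 0). The class II sum is lower in both PRMT1Cx3cr1-KO libraries, where the ratio is 14.7 and 29.7 against 6.17 and 5.27 in PRMT1FL.

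Microglia with no UMI of the 4 class II genes were also summed apart, 4392 and 2728 cells in PRMT1FL and 5051 and 6479 in PRMT1Cx3cr1-KO. Since the class II sum was lower in both PRMT1Cx3cr1-KO libraries, though no class II gene was called, the cells that this filter keeps differ between the genotypes too. In these cells edgeR called no member, where 315 of 12516 genes were (2.52%), 111 lower (0.887%) and 204 higher (1.63%). All 10 log2 fold changes were again below 0, with a median of -0.32, where 50.5% of all genes were, and 6 did not overlap between the groups, where 18.5% of all genes did not in this direction. At an unadjusted p under 0.05, 4 of the 10 were lower, where 9.47% of all genes were. B2m was at 3081 and 3368 CPM in PRMT1FL and at 2675 and 2122 CPM in PRMT1Cx3cr1-KO, a log2 fold change of -0.48 (SE 0.13, edgeR adjusted p = 0.0962). H2-D1 was at -0.51 (SE 0.17, adjusted p = 0.164), H2-K1 at -0.46 (SE 0.16, adjusted p = 0.172) and H2-Q7 at -1.02 (SE 0.37, adjusted p = 0.193). Without PRMT1Cx3cr1-KO replicate 1 all 10 were called lower, against 8.05% of genes. Without replicate 2, B2m (-0.31, edgeR adjusted p = 0.0318) and H2-Q7 (-0.45, adjusted p = 0.00157) were, against 2.49% of genes. Of the other class II genes, H2-Ob, which restrains class II loading, was called lower in class II-negative microglia with all 4 libraries, at 28.7 and 28.4 CPM in PRMT1FL against 21.4 and 18.6 CPM (log2 fold change -0.58, SE 0.10, edgeR adjusted p = 0.0374). A cell without a class II UMI is more often a shallow one, with medians of 4276 to 5422 UMIs, the highest being that of PRMT1Cx3cr1-KO replicate 2, against 7608 to 10200 in the others.

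With each cell thinned to 1000 UMIs, 27.1% and 31.2% of PRMT1FL microglia and 17.5% and 8.69% of PRMT1Cx3cr1-KO microglia had a class II UMI, against 59.9%, 65.0%, 50.3% and 38.7% before thinning. The cluster of neural and choroid markers was set beside the microglia, as a rough level of free RNA for class II only. Nearly all nucleated cells carry class I, so for class I it sets no such level. This cluster also held microglial markers at a sum of 1674 CPM. Its cells had medians of 1694 to 3060 UMIs, where microglia had 6234 to 7066. There the thinned class II shares were 5.24%, 6.57%, 1.92% and 0 of 25 cells, which allows a share of up to 12%. A UMI of any class I chain was found in 98.6% and 98.99% of thinned PRMT1FL microglia and in 98.1% and 95.5% of PRMT1Cx3cr1-KO microglia, against 48.2% to 61.5% in that cluster. For H2-Q7 the thinned shares were 4.80%, 5.27%, 4.82% and 1.26%, so PRMT1Cx3cr1-KO replicate 1 was not below both PRMT1FL libraries, as it was in CPM. Per 1000 such cells, H2-D1 had 1992 and 2130 UMIs in class II-positive and 1518 and 1579 in class II-negative PRMT1FL cells. In PRMT1Cx3cr1-KO the values were 2002 against 1397 in replicate 1 and 1207 against 937 in replicate 2. H2-Q7 had 46.9 and 49.8 UMIs in class II-negative PRMT1FL cells, against 45.1 and 11.3 in PRMT1Cx3cr1-KO. In class II-positive cells it had 58.2 and 74.0 against 75.7 and 28.4, so PRMT1Cx3cr1-KO replicate 1 was the highest there. Class II-positive cells had more UMIs in all 4 libraries for H2-D1, H2-K1, H2-Q4, H2-Q7, B2m, Tapbp and Nlrc5. In class II-positive cells Nlrc5 rests on 9 to 21 UMIs per library, and H2-Q7 on 25 in PRMT1Cx3cr1-KO replicate 2. B2m and Tapbp were close to level in PRMT1FL, with log2 ratios of 0.015 and 0.064 for B2m and 0.073 and 0.063 for Tapbp. In PRMT1Cx3cr1-KO they were at 0.29 and 0.36 for B2m and 0.26 and 0.34 for Tapbp. Tap1 was level in PRMT1FL replicate 1 (-0.008). H2-T23 and Tap2 were not higher in PRMT1Cx3cr1-KO replicate 2.

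Among the microglial clusters, which were formed without the 10 genes, the members differed in where they were highest. The cluster led by Rsad2, Ifit3 and other interferon-induced genes, 698 cells, had the highest Nlrc5, a mean of 30.7 CPM over the 4 libraries and 4.66 times the level of all microglia. Tap1 was 2.74 times, H2-T23 1.64, H2-Q7 1.60, Tap2 1.58, Tapbp 1.54 and H2-Q4 1.44 times the level of all microglia there. H2-K1 (1.25), B2m (1.13) and H2-D1 (1.13) were closer to it. In that cluster Nlrc5 was at 36.3 and 29.4 CPM in PRMT1FL and 31.0 and 26.0 CPM in PRMT1Cx3cr1-KO, from 33 to 84 UMIs per library, above the 1.45 to 9.09 CPM of clusters 0 and 2 to 6. Among the 7 clusters with a value in all 4 libraries, H2-D1 was highest in the one led by Itgax, Lag3 and Cd74, at 1.23 times the level of all microglia. The cluster led by Ms4a7, in which PRMT1FL replicate 2 had too few cells, was above it in PRMT1FL replicate 1 (2070 against 1984 CPM) and in PRMT1Cx3cr1-KO replicate 2 (1249 against 1174 CPM). Another cluster was led by Il7r, Hspa1b, Adgrg1 and Hspa1a, and P2ry12 was also among its 10 leading genes. Hspa1a and Hspa1b are heat shock genes, and the paper names HSPA1A among markers of transcription set off by enzymatic isolation. For its own clusters the paper reports no evidence that such markers were the driver. In the cluster led by Il7r here, B2m was 0.645, H2-Q7 0.551 and H2-D1 0.780 times the level of all microglia, while Tap2 was 1.61 times. H2-Q4 (0.340) and Nlrc5 (0.292) were lowest in the cluster of haemoglobin and division genes. The clusters differ in depth and the cells were clustered on genes that vary with these ones, so these levels carry no test.

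**Figure D5:**
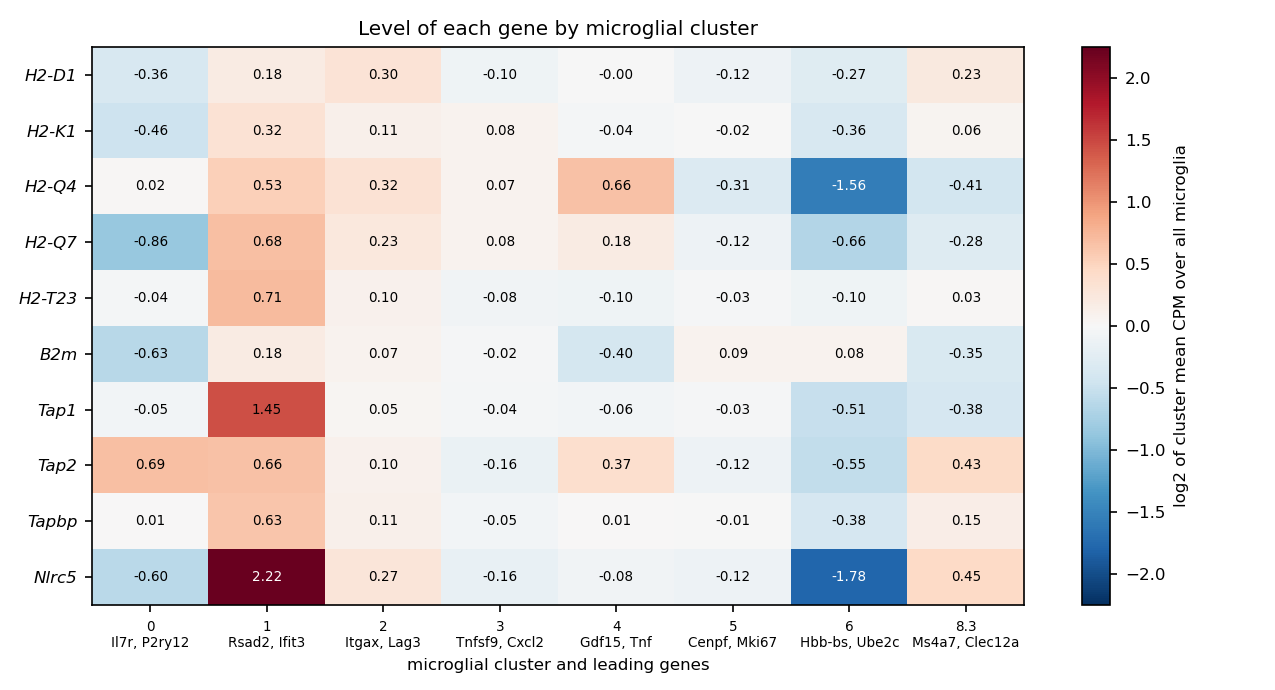
Level of each gene in 8 microglial clusters, as log2 of the mean CPM over libraries divided by its level in all microglia. The cluster mean is over 3 libraries for cluster 8.3, without PRMT1FL replicate 2, and otherwise over 4. The level in all microglia is always over 4 libraries, so the column of cluster 8.3 sets unlike libraries against each other. Nlrc5 and Tap1 stand out in the interferon-responsive cluster 1, and H2-Q4 and Nlrc5 are lowest in cluster 6.

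The genotype difference was also taken within clusters. In the 7 clusters with at least 50 cells in every library, PRMT1Cx3cr1-KO replicate 2 lay below both PRMT1FL libraries in all 7 for every member except Tap2, for which it did in 6. Replicate 1 did so in 7 clusters for H2-D1 and B2m, in 6 for H2-K1 and H2-Q7 and in 4 for H2-T23, Tap2 and Tapbp. It did so in 2 for H2-Q4, in 1 for Tap1 and in none for Nlrc5. How often all genes did so within clusters was not counted, so these counts have no share to be read against. In limma's voom fit with the library as a random block, the log2 fold change of H2-D1 ran from -0.76 to -0.39 over the clusters, that of B2m from -0.61 to -0.35 and that of H2-Q7 from -1.65 to -0.47. In none of the 7 clusters was a member's genotype effect called different from that in the others. The lowest adjusted p in this limma fit was 0.311, for Tap2, where 0.889% of 86303 such tests passed. For H2-Q7 the SE of that difference ran from 0.36 to 0.74 in log2, so the test could miss large differences. With the cluster of each sum as a term and the spread taken over library and cluster sums, 7 of the 10 members were called lower, where 6.86% of 12329 genes were, but such a fit takes 7 sums from each mouse.

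The other genes of the pathway were taken by their lists. None of the 10 genes of peptide supply and loading was called, with a median of -0.03, and their sum was 2676 and 2834 CPM in PRMT1FL and 2753 and 2962 CPM in PRMT1Cx3cr1-KO. The most abundant were the chaperone Calr, at 763 and 839 CPM against 743 and 950 CPM, and the proteasome activator subunit Psme1, at 475 and 448 CPM against 505 and 443 CPM. Of 13 other class I and class I-like chains in the files 10 were tested and none was called, with a median of -0.21. The most abundant were H2-M3, which presents formylated peptides, at 77.5 and 83.7 CPM against 73.9 and 54.3 CPM, and Fcgrt, the neonatal Fc receptor, at 68.3 and 69.2 CPM against 65.1 and 56.8 CPM. H2-Q6, named here after its values were seen, was at 34.1 and 32.8 CPM against 30.3 and 9.26 CPM, and lies in the Qa region like H2-Q7. The 14 regulators had a median of -0.05 with none called. Irf8, a transcription factor of the microglial lineage, was at 608 and 563 CPM against 515 and 482 CPM (log2 fold change -0.30, SE 0.08, edgeR adjusted p = 0.130), and Nfkb1, a subunit of the transcription factor NF-kB, at 86.5 and 91.8 CPM against 88.5 and 80.1 CPM.

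The interferon-induced genes were split between the 2 PRMT1Cx3cr1-KO mice. The 14 type I genes summed to 2332 and 2618 CPM in PRMT1FL, to 2998 CPM in replicate 1 and to 2031 CPM in replicate 2. The 9 genes of the interferon gamma list summed to 360 and 312 CPM against 435 and 266 CPM. Replicate 1 was thus the highest library for both sums and replicate 2 the lowest. The most abundant type I genes were Ifi27l2a, at 1100 and 1188 CPM in PRMT1FL against 1468 and 951 CPM, and Bst2, which tethers enveloped viruses, at 430 and 542 CPM against 541 and 507 CPM. No gene of either list was called in microglia, with medians of -0.17 and -0.20. In class II-negative microglia Ifi44 alone was called lower, at 5.35 and 5.13 CPM against 1.97 and 0.623 CPM. Without PRMT1Cx3cr1-KO replicate 1, 13 of the 14 type I genes were called lower, where 9.24% of all genes were. Without replicate 2, 1 was called lower and 4 higher, where 2.43% and 4.36% of all genes were. None of the 7 interferon receptor and kinase genes was called in any of these fits, with a median of -0.03.

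A further list held genes of receptors that bind class I or related ligands, or that belong to the families of such receptors. Of these, 5 of 7 were tested and none was called in microglia. In both PRMT1Cx3cr1-KO libraries 4 lay above both PRMT1FL libraries, as did 38.7% of all genes. In class II-negative microglia 2 were called higher, where 1.63% of all genes were. Pirb, an inhibitory receptor for class I molecules, was at 5.92 and 7.03 CPM in PRMT1FL and at 12.1 and 13.7 CPM in PRMT1Cx3cr1-KO (log2 fold change 0.95, SE 0.13, edgeR adjusted p = 0.0213). Lilrb4a, an inhibitory receptor of the same family, was at 83.4 and 75.6 CPM against 124 and 160 CPM (0.78, SE 0.12, edgeR adjusted p = 0.0268).

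Over 28 points, the 7 clusters in the 4 libraries, the genes whose level was most like the mean of H2-D1, H2-K1 and B2m among 2522 genes of at least 50 CPM were Lgals3bp (Pearson r = 0.944), H2-Ab1 (0.868), Cd74 (0.859), Itgax (0.841) and Axl (0.813). The points share libraries and depth, so this is a description. Of the other members H2-Q7 followed that mean most closely (0.935) and Tap2 least (0.064).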

How the data were processed

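For each of the 4 libraries the authors ran Cell Ranger 3.1.0 against mm10, and the deposited values are its UMI counts by gene and barcode, not normalized. The submitters' processing notes also name Seurat 3.2.0. The labels name the v2 kit. The study's limits were kept (200 to 6000 genes, mitochondrial UMIs up to 10%) and the cells were clustered over all 4 libraries (scanpy 1.11.5, 2000 variable genes, 20 components, resolution 0.4), leaving out the 10 members, other MHC genes and 1588 genes with an unadjusted genotype p under 0.01. The cluster with the highest border macrophage markers was then divided further in the same way. Clusters with 2 or more markers of another cell type among their 10 leading genes were set aside, 1362 cells in all. Microglial counts were summed per library, filtered with filterByExpr, scaled by TMM and tested with edgeR 4.0.16 (quasi-likelihood, Benjamini-Hochberg adjustment over all genes). The clusters were fitted with limma 3.58.1 (voom, library as a random block). The scripts were tested on simulated data. Nothing in the labels says more of the replicates than that each is 1 mouse's library.

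The doublet caller marked 0 to 2 cells per library and had not worked, so an alternative left out the 8% of cells with the highest scores, and ties. Other alternatives were DESeq2 1.42.0, its size factors, no low-count filter, all cells, a 5% mitochondrial limit, cells thinned to 1000 UMIs, the interferon cluster left out, each library left out and the replicate number as a block. The members and gene lists were chosen with earlier results of these data known. All 10 members are named; list genes are named where an adjusted p was under 0.05, or, where none was, the most abundant, and exceptions are said to be. The values of 1 regulator that this rule names are not reported here. Promoters are those of RefSeq; for H2-K1 the first of 2 starts was used. Counting intervals are not given, since the spread between mice is larger, and the share that a count of 0 allows covers counting error only.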

Additional observations from a re-analysis of the deposited data

How the results depend on the processing

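The fold changes of the 10 members in microglia kept their sign in 119 of 120 values under the alternatives that keep all 4 libraries, the exception being Nlrc5 at 0.018 after thinning, and 13 of the 120 passed an adjusted p of 0.05. The number of members called, 0 in the report, was 1 with DESeq2, where 2.23% of all genes were called lower. It was 5 with no low-count filter, where 682 of 20020 genes were called lower. With the cluster as a term it was 7, where 6.86% of genes were called lower. Leaving out a library gave 0 to 10 members called in microglia and 0 to 10 in class II-negative microglia, 10 of them without PRMT1Cx3cr1-KO replicate 1 in both. The fold changes that changed sign ranged, over the libraries left out, from -0.83 to 0.070 for H2-Q4, from -0.59 to 0.022 for Tap1 and from -0.72 to 0.079 for Nlrc5, and in class II-negative microglia from -0.68 to 0.14 for H2-Q4 and from -0.56 to 0.053 for Tap1, the upper end being without PRMT1Cx3cr1-KO replicate 2 each time. The members whose genotype effect differed between clusters numbered 0, and 0 to 1 with a library left out, the 1 being H2-D1 without PRMT1Cx3cr1-KO replicate 1. The genes called in microglia, 95, numbered 740 with DESeq2, 749 in all cells, 145 after thinning, 147 without the top doublet scores, 1789 with the cluster as a term and 1608 with no low-count filter, and 5 to 2680 with a library left out. In class II-negative microglia, 315 became 205 after thinning and 23 to 2098 with a library left out. The causes of these shifts were not tested, apart from the fewer samples or the other cells that a setting itself brings.

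Libraries with the same replicate number did not deviate together (r = -0.02 over 13829 genes), and nothing in the labels pairs them. With the replicate block, 301 genes were called in microglia and 488 in class II-negative microglia, and 0 members in either. Leaving out cluster 8.3, of whose 554 cells 433 came from PRMT1Cx3cr1-KO replicate 2, was chosen after seeing the data and called 109 genes and 0 members. Leaving out the haemoglobin-led cluster, also chosen after seeing the data, called 106 genes and 0 members. There were 2 mice per genotype, and each member had 420 UMIs or more per library in microglia.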
